A study of Homo sapiens with 3 samples.

Results

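The genes described here are 10 genes of the contractile apparatus and of mechanical signalling, namely ACTC1, ACTA2, TAGLN, MYL9, CNN1, CALD1, TPM1, TPM2, CCN1 and CCN2, out of 19775 genes with a probe set of their own. They are read by the 34 probe sets whose sole annotated symbol is that of a listed gene, and 28 of these lay above the floor on at least 1 array. The genes were picked with earlier results of these arrays in view, so their values are a description and support no test. RNA came from cultures of the established human embryonic stem cell line H9, taken off mouse embryonic fibroblasts and carried through embryoid bodies. RA astrocytes were day 210 cells patterned with retinoic acid from day 10 to day 21. FGF8 astrocytes were day 210 cells patterned with fibroblast growth factor 8 over the same days. Neuroepithelial cells were taken at day 17 and received neither morphogen. Each group is 1 Affymetrix expression array of whole-culture RNA, and no difference could be checked on a replicate. The number of arrays limits the precision. Less RNA per cell and fewer cells of a type cannot be told apart in such RNA.

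Contraction in non-muscle and smooth muscle cells rests on actin filaments, tropomyosins that lie along them, myosin with its regulatory light chain, and actin-binding proteins such as transgelin, calponin and caldesmon. Serum response factor (SRF) binds the CArG box in the promoters of many of these genes, and its MRTF coactivators leave the cytoplasm when free actin is used up by filament assembly. YAP, and its relative TAZ encoded by WWTR1, enter the nucleus in spread or stretched cells and act through TEAD factors. CCN1 and CCN2, which encode secreted matricellular proteins, are widely used readouts of YAP activity and also respond to SRF.

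Promoter sequence was looked at because the genes are grouped by the factors that bind it. RefSeq (GRCh38.p14) windows from 250 bases before to 50 bases after an annotated start site were available for 7 of the 10 genes, 14 windows in all, and TAGLN, MYL9 and CCN1 had none. The motifs searched were the CArG box, the same box with 1 core base other than A or T, and the TEAD-binding letters GGAATG on both strands. None of the matches in these windows overlapped another (0 overlapping pairs). ACTC1 had 1 exact CArG box at -109, counted from its start site, and 3 boxes with 1 core base off at -237, -200 and -149. ACTA2 had boxes with 1 core base off at -121 and -71 and a GGAATG match at -183 in 1 of its 2 windows. CCN2 had GGAATG at -169, -104 and -95. Single matches stood in a further ACTC1 window (GGAATG at -174) and in 3 of 4 CALD1 windows (a box with 1 core base off at -26, GGAATG at -42 and at -194). Of all 35116 promoter windows 1.29% held an exact CArG box, 6.94% a box with 1 core base off, and 14.0% at least 1 GGAATG match. At least 4 boxes of either kind stood in 0.00854% of windows, at least 2 in 0.686%, and at least 3 GGAATG matches in 0.128%. The stretches that carry these matches are shown 5′ to 3′ on the gene's strand, with CArG boxes (exact or 1 core base off) and GGAATG in capitals. A match describes the letters and does not show that a factor binds there. The ACTC1 stretch is chr15:34795645-34795794 (minus strand), the ACTA2 stretch chr10:88952829-88952968 (minus strand) and the CCN2 stretch chr6:131951458-131951557 (minus strand).
ACTC1: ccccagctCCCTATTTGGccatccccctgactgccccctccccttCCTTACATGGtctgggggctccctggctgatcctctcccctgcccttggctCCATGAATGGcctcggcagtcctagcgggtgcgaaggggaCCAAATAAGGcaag
ACTA2: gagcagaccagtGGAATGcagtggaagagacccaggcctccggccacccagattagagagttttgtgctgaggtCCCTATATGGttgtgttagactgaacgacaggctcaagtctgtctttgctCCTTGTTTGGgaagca
CCN2: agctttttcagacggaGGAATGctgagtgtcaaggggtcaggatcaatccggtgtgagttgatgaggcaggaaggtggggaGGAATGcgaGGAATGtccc

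**Figure D1:**
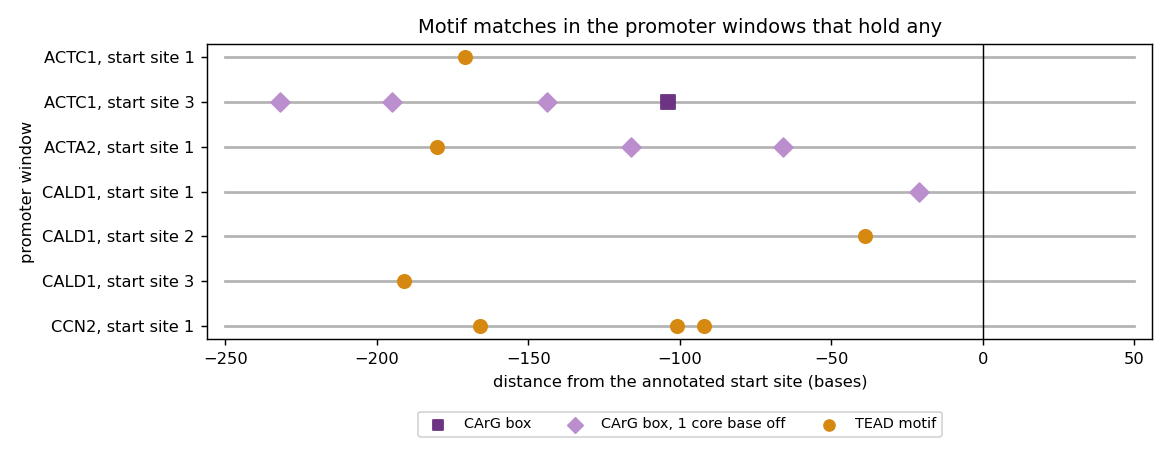
Positions of motif matches (dark square, exact CArG box; light diamond, CArG box with 1 core base off; orange circle, GGAATG on either strand) in those promoter windows of the genes that hold any, plotted by distance in bases from the annotated start site. The 4 boxes lie in a window of ACTC1, and the CCN2 window holds 3 GGAATG matches; windows of CNN1, TPM1 and TPM2 held none and are not drawn.

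Unless said otherwise, values below are array signals after quantile normalization across the 3 arrays, and differences are on the log2 scale. Signals under a floor of 26.1 (log2 4.71), set at the median over non-control probe sets, were raised to it. Where 1 of the compared signals sat at the floor the true difference may be larger, and the value is a bound. Astrocyte markers followed the labels in part: 8 of 8 lay above the floor in RA astrocytes, 8 of 8 in FGF8 astrocytes and 5 of 8 in neuroepithelial cells, where GFAP, S100B and AQP4 were below it, while ALDH1L1 stayed close to the floor on all 3 arrays. Of 7 neuroepithelial markers, 4 were at least 2-fold lower and 1 (NES) higher in RA astrocytes than in neuroepithelial cells. In FGF8 astrocytes 3 were lower and 0 higher. Among all compared genes 14.8% were lower and 18.2% higher in RA astrocytes, and 10.5% and 12.8% in FGF8 astrocytes. Among the 7 neuroepithelial markers LIN28A, an RNA-binding protein of early progenitors, had the largest difference. It was below the floor in both astrocyte arrays and had a signal of 3572 in neuroepithelial cells. SOX2 stayed within 2-fold in both astrocyte arrays. For ACTB, deposited signals of probes at the 3′ end over probes at the 5′ end gave a ratio that is larger in shortened RNA. It was 6.67 in RA astrocytes, 6.63 in FGF8 astrocytes and 1.33 in neuroepithelial cells. The same ratio for GAPDH was smaller, at 1.79, 1.65 and 0.98 in that order. In the deposited values, before quantile normalization, spiked-in transcripts were 2.62-fold brighter on the RA array than on the neuroepithelial array. On the FGF8 array they were 1.09-fold brighter than on the neuroepithelial array. The part of RNA length, of labelling and of hybridisation in the differences below was not tested.

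The 10 genes showed unlike patterns. ACTC1, MYL9, TPM1, TPM2 and CCN2 were at least 2-fold lower in both astrocyte arrays than in neuroepithelial cells. ACTA2, TAGLN, CNN1 and CCN1 were at least 2-fold lower in FGF8 astrocytes and within 2-fold of the neuroepithelial level in RA astrocytes. CALD1 lay within 2-fold in both. These sets were made after the values were seen. In RA astrocytes 5 of 10 genes were at least 2-fold lower than in neuroepithelial cells and 0 were higher, where 14.8% of all compared genes were lower and 18.2% higher. In FGF8 astrocytes 9 of 10 were lower and 0 higher, against 10.5% lower and 12.8% higher among all genes. Of 9 genes that could be compared between the astrocyte arrays, 6 were at least 2-fold higher in RA astrocytes and 0 lower, against 9.83% higher and 7.97% lower among all genes. The median log2 difference of the genes was -1.58 in RA and -4.19 in FGF8 astrocytes against neuroepithelial cells, and 1.81 for RA minus FGF8, where all compared genes had medians of 0.065, 0.045 and 0.009. The genes were chosen from the same comparisons, which also share arrays with each other, so nothing is read from these counts. At the level of probe sets, 13 of 28 compared were lower and 2 higher in RA astrocytes (16.0% lower and 16.1% higher among all probe sets), and 17 of 27 were lower and 3 higher in FGF8 astrocytes (11.6% and 11.4%). Between the astrocyte arrays 11 of 26 were higher in RA and 2 lower (9.05% and 7.98%).

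**Figure D2:**
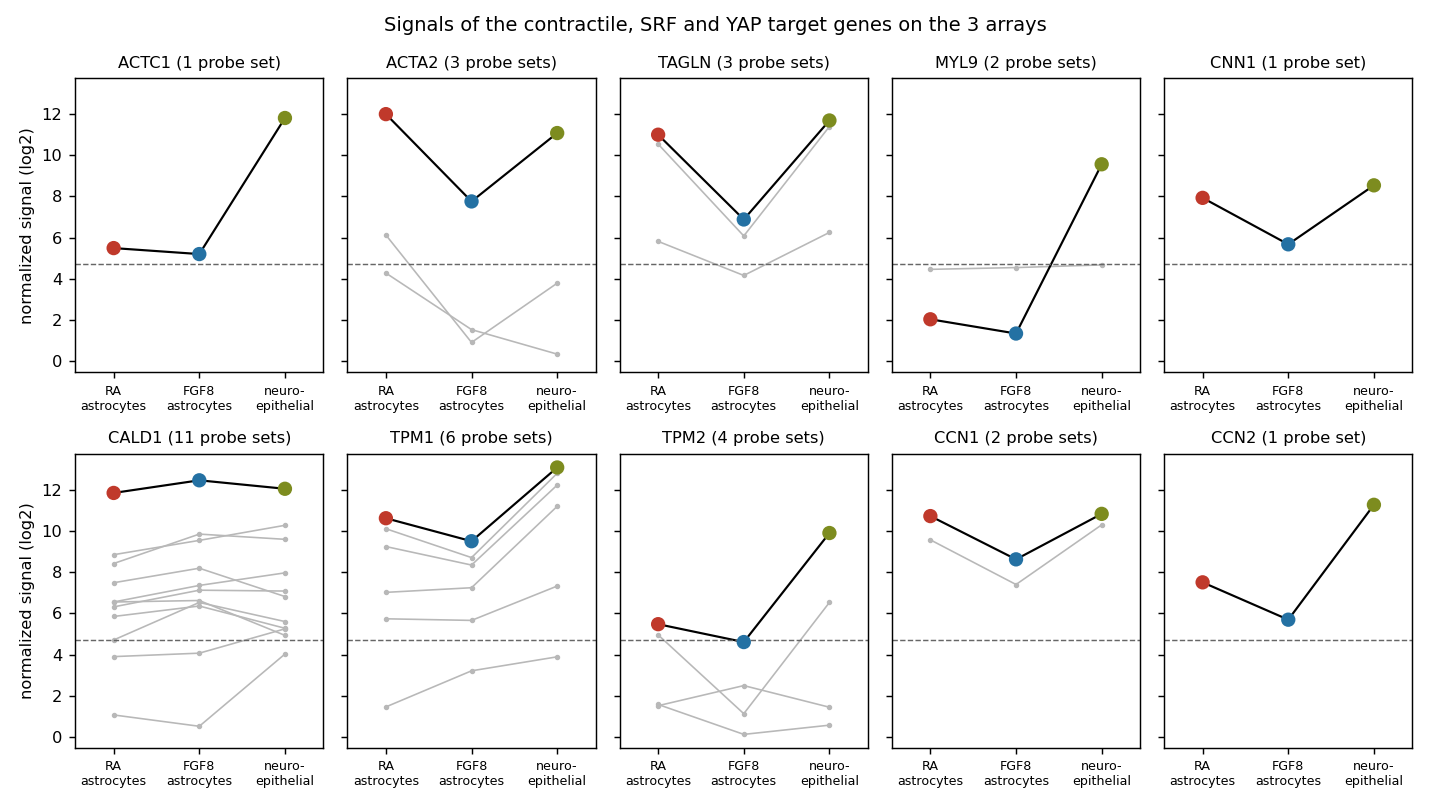
Normalized signal (log2, vertical axis) of each gene on the 3 arrays (red, RA astrocytes; blue, FGF8 astrocytes; green, neuroepithelial cells). Large points joined by a black line are the main probe set, grey lines the other probe sets, and the dashed line is the floor at 4.71. ACTC1, MYL9, TPM2 and CCN2 stand high only at the right, ACTA2, TAGLN, CNN1 and CCN1 dip in the middle, and CALD1 is nearly level on its main probe set.

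ACTC1 encodes cardiac alpha-actin, an actin of the heart and of embryonic skeletal muscle. Its single probe set had a signal of 45.1 in RA astrocytes, 36.9 in FGF8 astrocytes and 3580.1 in neuroepithelial cells. Both astrocyte signals were less than 2-fold above the floor, and the neuroepithelial one was far above them. The difference was -6.31 in RA astrocytes, a 79.3-fold lower signal, and -6.60 in FGF8 astrocytes, a 96.9-fold lower signal. Among genes measured above the floor on both arrays, it had the lowest difference of all in FGF8 astrocytes (rank 1 of 10776) and rank 4 of 10667 from the bottom in RA astrocytes. The astrocyte arrays differed from each other by 0.29, within 2-fold. With the floor at the 70th percentile both astrocyte signals fell under it, and each difference from neuroepithelial cells became a bound of -5.23.

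ACTA2, the smooth muscle alpha-actin of vessel walls, pericytes and myofibroblasts, had a different order. Its main probe set had signals of 4079 in RA astrocytes, 217 in FGF8 astrocytes and 2158 in neuroepithelial cells. RA astrocytes were thus the highest of the 3 and FGF8 astrocytes the lowest. The RA signal was 1.89-fold the neuroepithelial one (0.92), just inside the 2-fold size. It passed that size without further normalization (1.14), with equalized array medians (1.55) and as a mean over all ACTA2 probe sets (2.40). That mean took in neuroepithelial signals of the other probe sets, 13.9 and 1.28, that were under the floor and not raised to it. FGF8 astrocytes were 9.96-fold lower than neuroepithelial cells (-3.32), and RA astrocytes were 18.8-fold higher than FGF8 astrocytes (4.23), rank 14 from the top among 10949 genes measured on both. As that mean the FGF8 signal lay under the floor, and its difference from neuroepithelial cells was a bound of -0.37. A further probe set was above the floor only in RA astrocytes, at 70.1, and the third was below it on every array.

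Transgelin (TAGLN), an actin-binding protein of smooth muscle, had signals of 2042 in RA astrocytes, 118 in FGF8 astrocytes and 3294 in neuroepithelial cells on its main probe set. The RA and neuroepithelial signals lay within 2-fold of each other (-0.69). FGF8 astrocytes stood apart, 27.9-fold below neuroepithelial cells (-4.80) and 17.3-fold below RA astrocytes, a difference of 4.11 for RA minus FGF8 that ranked 18 from the top. A second bright probe set had 1490.2, 68.0 and 2689 in RA, FGF8 and neuroepithelial cells, with differences of -0.85, -5.31 and 4.46. The dimmest lay below the floor in FGF8 astrocytes, where it gave bounds of -1.55 against neuroepithelial cells and 1.12 for RA minus FGF8. All 3 probe sets therefore ran the same way in each comparison.

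Calponin 1 (CNN1), which binds actin and damps myosin activity in smooth muscle, had signals of 244 in RA astrocytes, 51.3 in FGF8 astrocytes and 372 in neuroepithelial cells on its single probe set. The order matched that of TAGLN, with FGF8 astrocytes lowest. RA astrocytes differed from neuroepithelial cells by -0.61, FGF8 astrocytes were 7.26-fold lower than neuroepithelial cells (-2.86), and RA astrocytes were 4.77-fold higher than FGF8 astrocytes (2.25).

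Caldesmon (CALD1), which ties actin to myosin and has long smooth muscle and short non-muscle isoforms, was the exception. Its main probe set had signals of 3673 in RA astrocytes, 5620.3 in FGF8 astrocytes and 4226 in neuroepithelial cells. All 3 lay within 2-fold, with differences of -0.20, 0.41 and -0.61 for RA minus neuroepithelial, FGF8 minus neuroepithelial and RA minus FGF8. The sign of the RA difference flipped to 0.053 without further normalization and 0.47 with equalized array medians. The 11 probe sets of the gene disagreed. Against neuroepithelial cells, 1 was at least 2-fold higher, 3 lower and 6 within 2-fold in RA astrocytes, and 3 were higher, 0 lower and 7 within 2-fold in FGF8 astrocytes. At 1 extreme a probe set had 93.9 in RA astrocytes, 98.7 in FGF8 astrocytes and 30.6 in neuroepithelial cells, and differed from neuroepithelial cells by 1.62 in RA and 1.69 in FGF8 astrocytes. At the other a probe set of the cross-hybridising type had 461 in RA astrocytes, 745 in FGF8 astrocytes and 1237 in neuroepithelial cells, with differences of -1.42 in RA and -0.73 in FGF8 astrocytes. Which isoforms each probe set binds was not analysed here. Between the astrocyte arrays all 9 compared probe sets were lower in RA, 2 of them at least 2-fold.

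MYL9, the regulatory light chain through which phosphorylation switches on smooth muscle and non-muscle myosin, was below the floor in RA astrocytes (4.13) and FGF8 astrocytes (2.55) and had a signal of 756 in neuroepithelial cells. It was at least 29.0-fold lower in each astrocyte array (-4.86 as a bound), and the astrocyte arrays could not be compared. Its other probe set lay just under the floor on all 3 arrays, at 22.1 in RA astrocytes, 23.5 in FGF8 astrocytes and 25.6 in neuroepithelial cells. It is the only one left once less specific types are dropped, and MYL9 then gave no difference.

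Tropomyosin 1 (TPM1), a coiled-coil protein that lies along actin filaments, had signals of 1571 in RA astrocytes, 725 in FGF8 astrocytes and 8646 in neuroepithelial cells. Neuroepithelial cells were highest and FGF8 astrocytes lowest. RA astrocytes were 5.51-fold lower (-2.46) and FGF8 astrocytes 11.9-fold lower (-3.58) than neuroepithelial cells. All 5 of its probe sets above the floor were at least 2-fold lower in both astrocyte arrays, from -1.59 to -4.17 in RA astrocytes and from -1.67 to -4.09 in FGF8 astrocytes. For RA minus FGF8 the main probe set gave 1.12 and the others -0.23 to 1.40, and restricting the gene to its more specific probe sets turned the difference to -0.23.

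Tropomyosin 2 (TPM2), known from smooth and slow muscle and from fibroblasts, had signals of 44.6 in RA astrocytes, 24.4 (under the floor) in FGF8 astrocytes and 955 in neuroepithelial cells. It was 21.4-fold lower in RA astrocytes (-4.42) and at least 36.6-fold lower in FGF8 astrocytes (-5.19) than in neuroepithelial cells. RA astrocytes were at least 1.71-fold higher than FGF8 astrocytes. A dimmer probe set ran the same way, at 31.1, 2.20 and 92.6 in RA, FGF8 and neuroepithelial cells. As a mean over all TPM2 probe sets the gene was under the floor on every array and gave no difference, and with the floor at the 70th percentile it gave a bound of -3.33 in both astrocyte arrays.

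CCN1 (CYR61), a secreted integrin ligand, had signals of 1687 in RA astrocytes, 394 in FGF8 astrocytes and 1818 in neuroepithelial cells on its main probe set. The RA and neuroepithelial signals were nearly equal (-0.11, and 0.031 without further normalization or 0.44 with equalized array medians). FGF8 astrocytes were 4.62-fold lower than neuroepithelial cells (-2.21), and RA astrocytes were 4.28-fold higher than FGF8 astrocytes (2.10). Its other probe set gave -0.73, -2.89 and 2.17 in the same order of comparisons.

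CCN2 (CTGF), its close relative and a mediator of TGF-beta driven matrix production, was the lowest in FGF8 astrocytes as well but did not keep its level in RA astrocytes. Its single probe set had signals of 182 in RA astrocytes, 51.8 in FGF8 astrocytes and 2466 in neuroepithelial cells. The signals were 13.6-fold lower in RA astrocytes (-3.76) and 47.6-fold lower in FGF8 astrocytes (-5.57) than in neuroepithelial cells, rank 80 of 10667 and rank 5 of 10776 from the bottom. RA astrocytes were 3.51-fold higher than FGF8 astrocytes (1.81). With the floor at the 70th percentile the FGF8 signal fell under it, and this difference became a bound of 0.93.

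**Figure D3:**
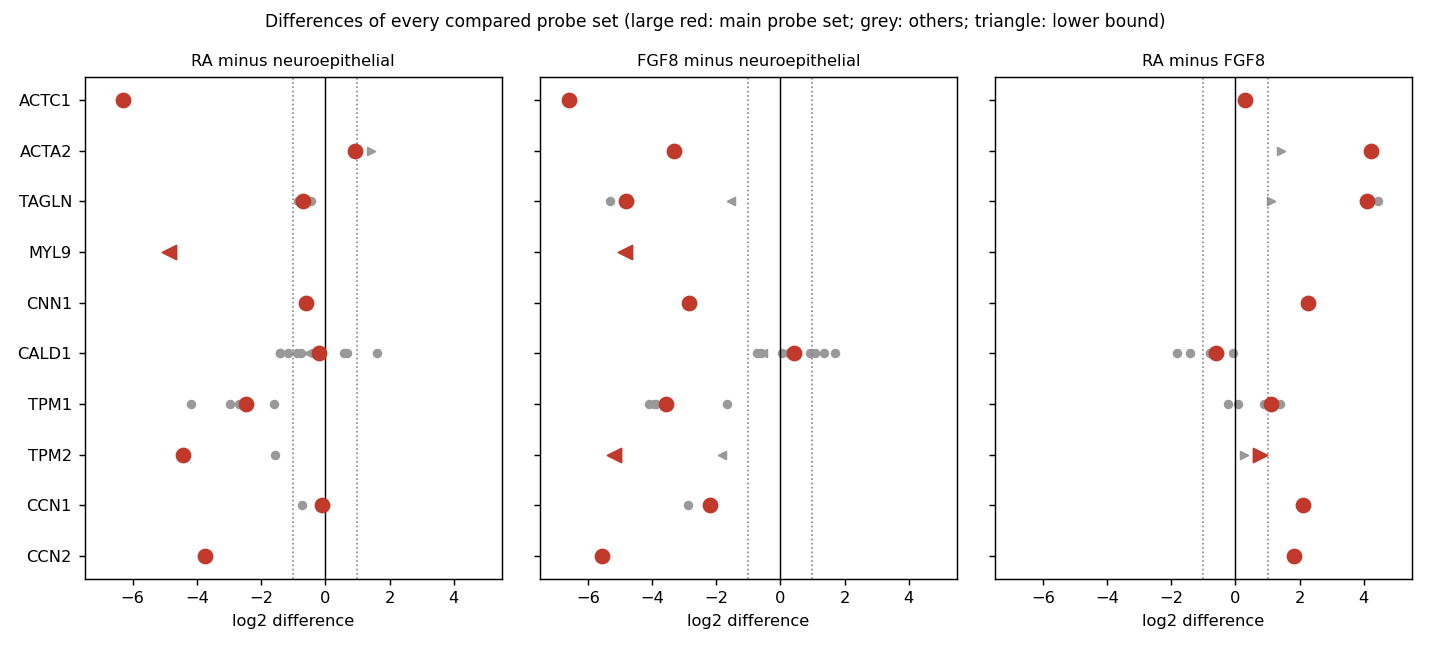
Log2 differences (horizontal axis) of every compared probe set of each gene for RA minus neuroepithelial, FGF8 minus neuroepithelial and RA minus FGF8. Large red symbols are main probe sets, grey symbols the others, triangles lower bounds, and dotted lines mark 2-fold. In the middle panel the main probe sets of 9 genes lie left of the dotted line, and in the left panel those of 5 do.

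The centred log2 profiles of the genes over the 3 arrays, with values under the floor raised to it, were compared by Euclidean distance. The nearest pairs were CNN1 with CCN1 (0.48 log2 units), MYL9 with TPM2 (0.55), TPM2 with CCN2 (0.74) and ACTA2 with TAGLN (1.27). ACTC1 had the largest range over the arrays, 6.60 log2 units. The 5 other genes of 13863 nearest to it were TRIM71 at a distance of 0.18, LIN28B at 0.25, STK26 at 0.30, COL3A1 at 0.32 and SHISA2 at 0.33. Their signals in either astrocyte array were at most 31.2, and in neuroepithelial cells 2151 to 2816. With 3 arrays such a distance describes these libraries only.

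Structural relatives of these genes were read from fixed lists, whose counts stand beside the shares among all genes given above. Of 11 paralogs compared, 4 were at least 2-fold lower and 1 higher in RA astrocytes than in neuroepithelial cells (median -0.19), and 4 were lower and 0 higher in FGF8 astrocytes (median -0.56). Muscle-type actins were among the lower ones. ACTG2, the enteric smooth muscle actin, had signals of 4.84 in RA astrocytes, 17.1 in FGF8 astrocytes and 323 in neuroepithelial cells, at least 12.4-fold lower in both astrocyte arrays. ACTA1, the skeletal muscle actin, had 0.956 in RA astrocytes, 24.9 in FGF8 astrocytes and 118 in neuroepithelial cells, at least 4.53-fold lower in both. The main probe set of the cytoplasmic actin ACTB had a signal of 16998 in both RA astrocytes and neuroepithelial cells. Quantile normalization gives probe sets of equal rank the same value, so this is not a measured equality. Its other probe sets gave 0.26 and 0.28 for RA minus neuroepithelial. FGF8 astrocytes lay within 2-fold of neuroepithelial cells (-0.215 on the main probe set). TPM4, a non-muscle tropomyosin, was -1.49 in RA and -2.03 in FGF8 astrocytes, although a dim probe set gave a bound of 0.47 in FGF8 astrocytes. The myosin light chain gene MYL12A was -1.85 in RA and -2.62 in FGF8 astrocytes. The calponin CNN2 (-0.22 in RA, -0.88 in FGF8) and its relative CNN3 (0.10 in RA, -0.04 in FGF8) stayed within 2-fold. TAGLN2, a broadly expressed relative of TAGLN, had signals of 7507 in RA astrocytes, 467 in FGF8 astrocytes and 687 in neuroepithelial cells. It was 16.1-fold higher in RA than in FGF8 astrocytes, a difference of 4.01.

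Among regulators of myosin and actin filaments, 5 of 16 were at least 2-fold higher and 0 lower in RA astrocytes than in neuroepithelial cells (median 0.45), and 1 was higher and 2 lower in FGF8 astrocytes (median 0.054). Between the astrocyte arrays 5 of 16 were higher in RA and 0 lower (median 0.29). MYLK, the myosin light chain kinase, had signals of 555 in RA astrocytes, 22.4 (under the floor) in FGF8 astrocytes and 429.9 in neuroepithelial cells. It was at least 21.3-fold higher in RA than in FGF8 astrocytes. ZYX, the focal adhesion protein zyxin, had signals of 1171 in RA astrocytes, 328 in FGF8 astrocytes and 164 in neuroepithelial cells, so that both astrocyte arrays were at least 2-fold higher. The actin-severing protein gelsolin (GSN) differed from neuroepithelial cells by 2.05 in RA and -0.16 in FGF8 astrocytes. VCL, which encodes the adhesion protein vinculin, was 0.45 in RA and -0.88 in FGF8 astrocytes, a difference of 1.33 for RA minus FGF8. The heavy chain gene MYH9 was -0.92 in RA and -1.14 in FGF8 astrocytes.

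**Figure D4:**
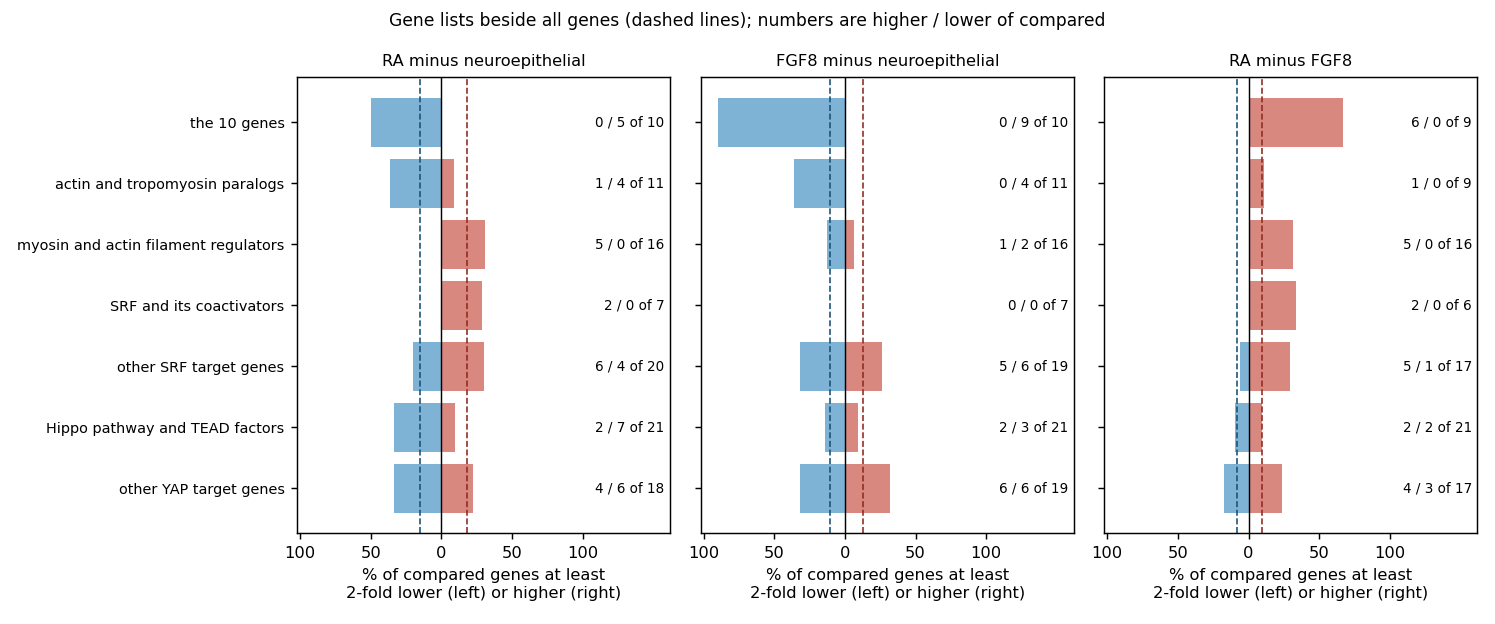
Share (horizontal axis, percent) of compared genes in each list that were at least 2-fold lower (blue, left) or higher (red, right) in RA minus neuroepithelial, FGF8 minus neuroepithelial and RA minus FGF8. Dashed lines give the shares among all genes, and the text gives counts as higher / lower of compared. The 10 genes in the top row were chosen from these comparisons, and the lists below it share some genes with each other.

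SRF itself was nearly level, with signals of 156.5 in RA astrocytes, 127 in FGF8 astrocytes and 189 in neuroepithelial cells, a difference of -0.27 in RA and -0.57 in FGF8 astrocytes. Its coactivator MRTFA was 1.05 in RA and 0.87 in FGF8 astrocytes, and MRTFB was 0.84 in RA and 0.40 in FGF8 astrocytes. MYOCD (myocardin), the coactivator restricted to heart and smooth muscle, had signals of 15.9 in RA astrocytes, 2.23 in FGF8 astrocytes and 27.1 in neuroepithelial cells, so that only the neuroepithelial one passed the floor, barely. The ETS partner ELK3 was the widest apart in this list, at 1.48 in RA and -0.81 in FGF8 astrocytes. Of 7 genes compared here, 2 were at least 2-fold higher and 0 lower in RA astrocytes, and 0 of 7 passed 2-fold in FGF8 astrocytes.

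Other SRF targets split. In RA astrocytes 6 of 20 compared were at least 2-fold higher than in neuroepithelial cells and 4 lower (20.0% lower, median 0.36), and in FGF8 astrocytes 5 of 19 were higher and 6 lower (31.6% lower, median -0.30). FOS, TGFB1I1 and JUNB were among the higher ones. FOS, an immediate early transcription factor, had signals of 1632 in RA astrocytes, 1819.7 in FGF8 astrocytes and 62.2 in neuroepithelial cells, a difference of 4.71 in RA and 4.87 in FGF8 astrocytes. The adhesion adaptor TGFB1I1 was 3.63 in RA and 2.99 in FGF8 astrocytes. JUNB, another immediate early gene, was at least 8.45-fold higher in RA and at least 4.53-fold higher in FGF8 astrocytes. CSRP1 and ANKRD1 were among the lower ones, beside ACTG2. The cysteine-rich protein gene CSRP1 was -3.08 in RA and -2.91 in FGF8 astrocytes. ANKRD1, a cardiac ankyrin repeat protein that responds to both SRF and YAP, had signals of 0.848 in RA astrocytes, 1.35 in FGF8 astrocytes and 226 in neuroepithelial cells, at least 8.66-fold lower in both astrocyte arrays.

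The mediators of YAP signalling differed in direction. YAP1 had signals of 829.98 in RA astrocytes, 853 in FGF8 astrocytes and 2331 in neuroepithelial cells. It was 2.81-fold lower in RA astrocytes (-1.49) and 2.73-fold lower in FGF8 astrocytes (-1.45). WWTR1, which encodes TAZ, had 4214 in RA astrocytes, 2661 in FGF8 astrocytes and 571 in neuroepithelial cells, and was 7.38-fold higher in RA astrocytes (2.88) and 4.66-fold higher in FGF8 astrocytes (2.22). The 4 TEAD genes, which encode the DNA-binding partners, lay within 2-fold of neuroepithelial cells. TEAD1 was -0.40 in RA and -0.16 in FGF8 astrocytes, TEAD2 -0.98 in RA and -0.70 in FGF8, TEAD3 0.63 in RA and -0.07 in FGF8, and TEAD4 0.99 in RA and -0.26 in FGF8. TEAD4 differed by 1.25 for RA minus FGF8. In the whole Hippo list 2 of 21 were at least 2-fold higher and 7 lower in RA astrocytes, and 2 of 21 were higher and 3 lower in FGF8 astrocytes. AMOTL1, an angiomotin that holds YAP outside the nucleus, was -1.88 in RA and -0.43 in FGF8 astrocytes. SAV1, the scaffold of the Hippo kinases, was -1.06 in RA and -1.34 in FGF8 astrocytes.

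**Figure D5:**
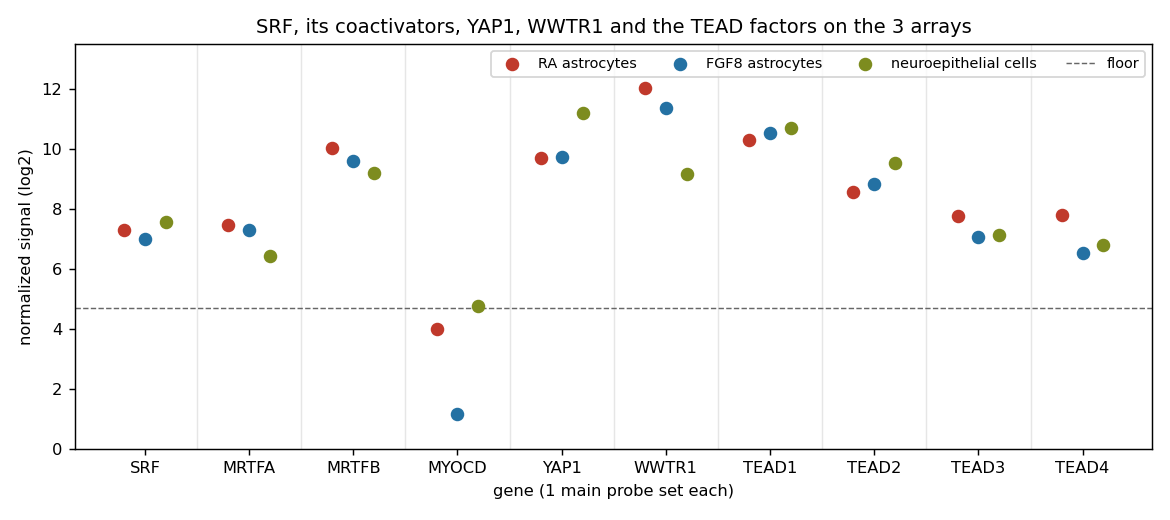
Normalized signal (log2, vertical axis) of SRF, its coactivators, YAP1, WWTR1 and the TEAD factors, 1 main probe set each, on the RA astrocyte (red), FGF8 astrocyte (blue) and neuroepithelial (green) arrays, with the floor dashed. YAP1 is lower and WWTR1 higher in both astrocyte arrays, and MYOCD lies at or under the floor or barely over it.

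Other YAP targets lay on both sides of the neuroepithelial level. In RA astrocytes 4 of 18 compared were at least 2-fold higher than in neuroepithelial cells and 6 lower (median -0.26), and in FGF8 astrocytes 6 of 19 were higher and 6 lower (median -0.57). IGFBP3, a secreted binding protein of insulin-like growth factors, had signals of 289 in RA astrocytes, 227 in FGF8 astrocytes and 1379.5 in neuroepithelial cells, lower by 4.77-fold in RA and 6.07-fold in FGF8 astrocytes. AJUBA, a LIM protein that inhibits the LATS kinases, was -1.36 in RA and -2.01 in FGF8 astrocytes, although a dim probe set gave a bound of 0.47 in RA astrocytes. TGFB2, a TGF-beta ligand, was 3.32 in RA and 3.08 in FGF8 astrocytes, with a dim probe set at a bound of -0.18 in both. F3, the clotting initiator tissue factor, was 2.71 in RA and 2.83 in FGF8 astrocytes. MYOF, a membrane repair protein, had signals of 1911 in RA astrocytes, 239 in FGF8 astrocytes and 355 in neuroepithelial cells, with RA astrocytes the highest. For RA minus FGF8, 4 of 17 compared targets were at least 2-fold higher and 3 lower (median 0.21). On main probe sets the lower ones were FJX1 (-1.68), DOCK5 (-3.24) and NT5E (-2.61 as a bound). In the remaining CCN family the main probe set of CCN3 was at least 9.54-fold higher in RA and at least 8.39-fold higher in FGF8 astrocytes than in neuroepithelial cells. Its other probe set, above the floor on all 3 arrays, measured smaller differences of 2.35 in RA and 1.90 in FGF8 astrocytes. CCN4 was above the floor in neuroepithelial cells alone, at 29.8, and CCN5 and CCN6 were below it on all 3 arrays.

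Markers of other cells that carry these genes differed between the arrays too. Of 10 fibroblast and mesenchyme markers, 4 were above the floor in RA astrocytes, 5 in FGF8 astrocytes and 10 in neuroepithelial cells, and their summed signals were 1129.9 in RA astrocytes, 7736 in FGF8 astrocytes and 15422 in neuroepithelial cells. Against neuroepithelial cells, RA astrocytes had 1 of the 10 higher by 2-fold or more and 7 lower, and FGF8 astrocytes 2 higher and 7 lower. On their main probe sets the collagens COL1A1 and COL3A1 were below the floor in both astrocyte arrays and had signals of 4994 and 2816 in neuroepithelial cells. A COL1A1 probe set of the cross-hybridising type was within 2-fold, at 68.8 in RA astrocytes, 46.0 in FGF8 astrocytes and 71.1 in neuroepithelial cells. PDGFRA, a growth factor receptor that also marks oligodendrocyte precursors, ran the other way, at 793 in RA astrocytes, 6001 in FGF8 astrocytes and 172 in neuroepithelial cells, and made up most of the FGF8 sum. PRRX1, a transcription factor of mesenchyme, was -0.35 in RA and 2.32 in FGF8 astrocytes. Of 12 smooth muscle and pericyte markers, 6 were above the floor in RA astrocytes, 4 in FGF8 astrocytes and 5 in neuroepithelial cells, with summed signals of 602, 404 and 1320.0 in that order. MYH11, the smooth muscle myosin, LMOD1 and MCAM were below the floor on all 3 arrays. RGS5, a pericyte marker, had 33.2 in RA astrocytes, 5.25 in FGF8 astrocytes and 1070.4 in neuroepithelial cells, and made up most of the neuroepithelial sum. PDGFRB was also lower in both astrocyte arrays, at -1.78 as a bound in RA and -1.47 in FGF8 astrocytes. DES, which encodes desmin, ran the other way, at 254 in RA astrocytes, 77.8 in FGF8 astrocytes and 5.70 in neuroepithelial cells. KCNJ8, of the same list, did so too, at 126 in RA astrocytes, 165 in FGF8 astrocytes and 33.9 in neuroepithelial cells. ABCC9 was above the floor only in RA (38.6) and FGF8 astrocytes (51.9), with bounds of 0.56 and 0.99 against neuroepithelial cells. In RA astrocytes 2 of 9 compared were at least 2-fold higher than in neuroepithelial cells and 2 lower. In FGF8 astrocytes 2 of 7 were higher and 2 lower. Of 13 cardiac and skeletal muscle markers, 4 were above the floor in RA astrocytes, 2 in FGF8 astrocytes and 5 in neuroepithelial cells. Their summed signals were 269, 179.5 and 529. The 5 in neuroepithelial cells were MYL4 (152), ACTA1 (118), TNNC1 (79.7), TNNI3 (67.8) and MYL7 (45.6). In RA astrocytes 3 of 7 compared were at least 2-fold lower than in neuroepithelial cells and 1 higher. In FGF8 astrocytes 4 of 6 were lower and 0 higher. MYH6, MYH7, MYOD1 and MYOG were below the floor on all 3 arrays. The part of such cells in the higher neuroepithelial signals was not tested. For RA minus FGF8, 0 of 5 compared mesenchymal markers were at least 2-fold higher in RA astrocytes and 4 lower, 1 of 7 smooth muscle and pericyte markers was higher (DES, 3.26-fold) and 0 lower, and 1 of 4 muscle markers was higher (NKX2-5, at least 2.58-fold) and 0 lower. Their part in the differences between the astrocyte arrays was not tested.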

How the data were processed

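Total RNA from 3 H9-derived cultures was hybridised to Affymetrix arrays, 1 per group, with labelling by a core facility per the labels' protocols. The authors deposited a linear intensity for each of 54675 probe sets. The deposited values show a mean of about 150.0 on each array once the lowest and highest 2% are left out, and how signals were summarised from probes is not stated there. Arrays have no counting depth.

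Because 75th percentiles differed by 0.14 log2 units, past a tolerance of 0.1, log2 intensities were quantile normalized across the 3 arrays. The floor was the median of 54613 non-control probe sets. Of these 41091 carried 1 symbol, 1801 several and 11721 none. Symbols came from the platform annotation, and 41037 probe sets matched RefSeq (GRCh38.p14) with 0 symbols updated. For each gene the main probe set was that of highest mean log2 signal after the floor, with _x_at types used where nothing else existed. Differences at least 2-fold were counted, with no test.

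Members, lists and alternatives were chosen with earlier results of these data known. Named genes were all members, a fixed set of regulators and relatives, and from each other list up to 3 per direction with the largest differences. MYLK, JUNB, ANKRD1, PDGFRA, PRRX1, NKX2-5, PDGFRB, KCNJ8 and ABCC9 were chosen after their values were seen. Another pathway list, counted in the pooled totals of the closing section, is not reported here. Alternatives were the deposited values alone, equalized array medians, other floors or none, other probe set rules, and sizes of 1.5-fold and 4-fold. Code was tested on simulated data. Python 3.11.15, numpy 2.4.6 and pandas 2.3.3 were used.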

Additional observations from a re-analysis of the deposited data

Results flagged for a closer look

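Genes are given here whose RA and FGF8 differences from neuroepithelial cells had opposite signs and were each at least 1.5-fold. With 1 array per group, and both differences resting on the same neuroepithelial array, the difference between the groups was not tested. ACTA2 was 0.92 in RA astrocytes and -3.32 in FGF8 astrocytes on the log2 scale. ELK3 was 1.48 and -0.81 in the same order, and the kinase gene LIMK2 0.98 and -0.93. PDLIM5, an actin-associated LIM protein, was 1.08 and -0.84, but 4 of its other probe sets were lower in RA astrocytes than in neuroepithelial cells (-0.44 to -1.77). Running the other way, DOCK5 was -0.81 in RA and 2.43 in FGF8 astrocytes, and VGLL3, a TEAD cofactor, was -2.53 as a bound and 0.64.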

How the results depend on the processing

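With 1 array per group no replicate could be left out and no paired analysis was possible because no group has a second sample. The count of the 10 genes lower in FGF8 astrocytes than in neuroepithelial cells was 7 to 9 in all alternatives, and that in RA astrocytes 4 to 7. The count higher in RA astrocytes, 0 as reported, was 1 (ACTA2) without further normalization, with equalized array medians, with averaged probe sets and at 1.5-fold. The count lower for RA minus FGF8 was 1 (CALD1) at 1.5-fold. The median of the genes for RA minus neuroepithelial was -0.67 with averaged probe sets and -0.61 when _x_at and _s_at probe sets were dropped. Both settings gave -2.86 for FGF8 minus neuroepithelial (-4.19 as reported), and dropping gave 1.12 for RA minus FGF8 (1.81 as reported). TPM1 for RA minus FGF8 became -0.23 when they were dropped. Of the 104 genes of the pathway lists together, 96 were compared with neuroepithelial cells and 90 between the astrocyte arrays. RA astrocytes had 24 higher and 18 lower, against 18.2% higher and 14.8% lower among all compared genes. The 24 and 18 became 38 and 11 with equalized medians and 12 and 7 at 4-fold. FGF8 astrocytes had 17 higher and 17 lower, against 12.8% higher and 10.5% lower among all compared genes. The 17 and 17 became 25 and 12 with equalized medians, 26 and 29 at 1.5-fold and 11 and 9 at 4-fold. With _x_at and _s_at dropped 11 were lower. For RA minus FGF8, 18 were higher and 9 lower, against 9.83% higher and 7.97% lower among all compared genes. The 18 and 9 became 7 and 3 at 4-fold. The count higher was 30 at 1.5-fold, 9 with averaged probe sets and 10 with _x_at and _s_at dropped. Equalized medians moved the median of all genes to 0.34 for RA and 0.42 for FGF8 minus neuroepithelial, and split all genes past 2-fold into 3406 higher and 1448 lower in RA astrocytes (2442 and 1996 as reported) and into 2866 higher and 955 lower in FGF8 astrocytes (1682 and 1378 as reported). Quantile normalization of linear signals, an alternative chosen after seeing the data, left the counts of the 10 genes as reported. Many values of single genes could not move under an alternative. A changed floor leaves signals above both floors as they were, and averaging leaves a gene with 1 probe set as it was. Of 225 values of single genes under alternatives, 213 kept their direction and side of 2-fold, and no robustness is read from that count. A further 7 could not be computed because both arrays were at the floor, among them the lower calls of MYL9 with _x_at and _s_at dropped and of TPM2 with averaged probe sets, in RA and FGF8 astrocytes alike. With the floor at the 70th percentile CNN1 for FGF8 minus neuroepithelial became a bound of -1.97. The cause of the others was not tested.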
